A study of Homo sapiens with 48 samples.

Results

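Light given to cells that carried NCBP1-Halo was compared with the photocaged probe given without light, 12 h after the treatment, across all genes. The members are the 4 light alone and the 4 probe alone libraries of 12 h, 8 of the 48 libraries of the series, and they were chosen by their labels. All 14685 genes of the deposited table passed the filter on low counts and were tested, and 61 of them differed between these arms. The genes that were lower with light alone included the retinoic acid receptor gene RARB, MUC19, the cholesterol exporter ABCA1 and enzymes of sterol synthesis. The heat shock gene HSPA6 was lower too, on as few as 30 counts in a library. Genes that were higher with light alone included TIPARP, a target of the aryl hydrocarbon receptor, and the signalling genes BMP4, ID2 and IRS4.

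The cells were HEK293T, a human embryonic kidney line, transfected to express NCBP1 joined to HaloTag. NCBP1 is the larger protein of the complex that binds caps in the nucleus, which holds the 5′ cap of new transcripts made by RNA polymerase II. In T-REX, a HaloTag ligand carries a photocaged form of 4-hydroxynonenal (HNE), a reactive aldehyde from oxidized lipids, to the fused protein, and light then frees the aldehyde beside it. Light alone and probe alone are technical controls of that method, and DMSO, the vehicle, is the other one. All arms carried the same plasmid. The labels call these arms control UV and control Pre. The study's Methods list the probe as well as light under light alone, and the probe without light under probe alone. As written, light alone thus holds the same agents as T-REX, and the labels do not settle whether its cells received the probe. The values below compare the arms as named. The plasmid is transiently expressed, and fewer expressing cells and less NCBP1 RNA per cell cannot be told apart in these bulk samples.

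Total counts were 27301696 to 31657759 in the light alone libraries and 27891646 to 29685036 in the probe alone libraries. Of 9 genes listed as typical of HEK293T cells 7 were in the table, among them VIM at 599 to 683 CPM, the counts of a gene scaled to a fixed library total and NEFL at 73.1 to 87. Of 9 markers of blood, liver, fibroblast, endothelium and muscle, COL1A1 was the 1 listed, at 4.38 to 6.18 CPM. NCBP1, counted from plasmid and genome together, was read at 35300, 43360, 36490 and 50250 CPM in light alone replicates 1 to 4, and at 54600, 57870, 54210 and 75760 CPM with probe alone. The ranges did not overlap, and the highest value was that of probe alone replicate 4. The difference did not pass the test (log2 fold change -0.55 ± 0.13 SE, adjusted p = 0.0699, quasi-likelihood test of edgeR, Benjamini-Hochberg adjusted over all 14685 genes). NCBP1 averaged 35440 ± 4502 CPM with DMSO and 58790 ± 5356 with T-REX (SD, n = 4 each).

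Of the 14685 genes, 61 (0.415%) had an adjusted p of at most 0.05, and these are referred to as called. With light alone, 29 (0.197%) were higher and 32 (0.218%) were lower. A positive log2 fold change stands for a higher level with light alone. The changes were small: the median was 0.32 among the called higher genes and -0.47 among the called lower genes, and 12 of the 32 lower genes and 2 of the 29 higher genes passed 1.5-fold. HSPA6 alone passed 2-fold. The median over all genes tested was -0.0028. The CPM ranges of the 4 light alone and 4 probe alone libraries did not overlap for 59 of the 61 genes, beside 11.1% of all genes, and overlapped for TCEAL9 and POMP. Of the 61, 51 were protein coding (83.6%, beside 80.9% of all genes).

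**Figure D1:**
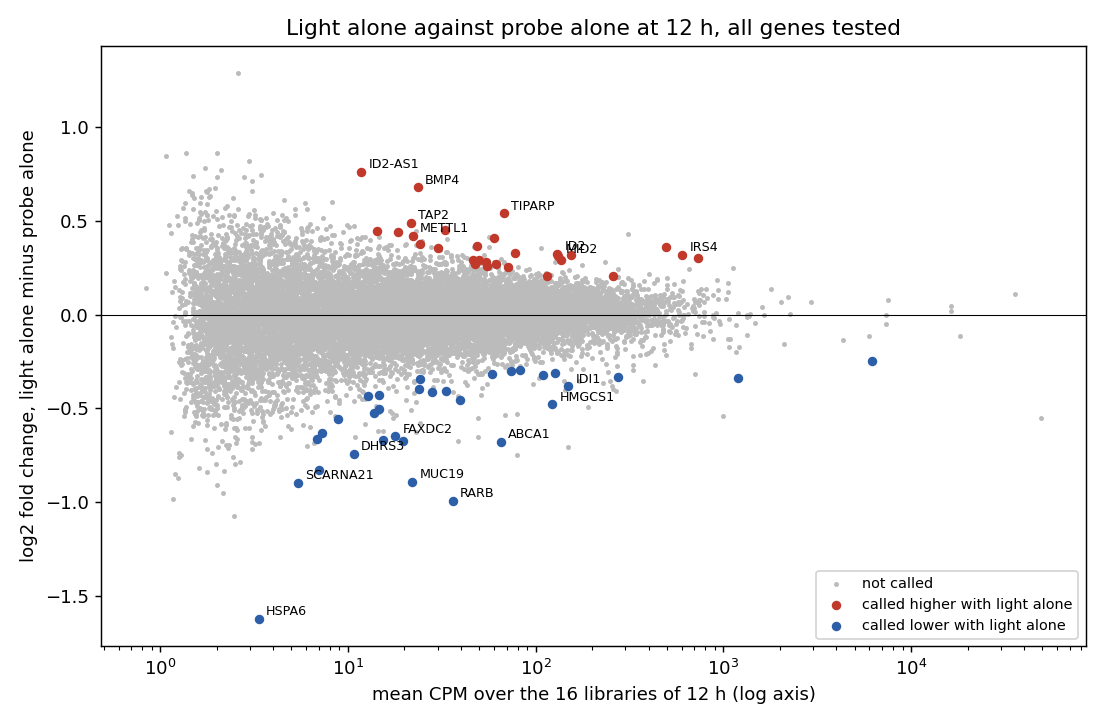
Log2 fold change of light alone over probe alone at 12 h (vertical axis) against the mean CPM over the 16 libraries of 12 h (log axis), 1 point per gene, red where called higher and blue where called lower. The 61 called genes lie between -1.62 (HSPA6) and 0.76 (ID2-AS1), and the names are those of HSPA6 and of genes with a symbol that were called in every setting tried.

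How many genes were called changed with the libraries that were fitted, and the reason was not tested. All 16 libraries of 12 h shared 1 estimate per gene, and the median SD of log2 CPM was 0.143 in the DMSO arm, beside 0.0743 in the light alone arm, 0.0874 in the probe alone arm and 0.078 in the T-REX arm. With only the 8 light alone and probe alone libraries 709 genes were called (4.83%), and without DMSO replicate 3 494 were (3.36%), and each of those sets held all 61. Leaving out light alone replicate 1, 2 or 3 gave 26, 28 and 20 calls, and leaving out probe alone replicate 1, 2 or 3 gave 32, 31 and 23. Leaving out probe alone replicate 4 gave 133, DMSO replicates 1 and 4 gave 157 and 105, and T-REX replicates 1 and 3 gave 40 each. In every setting tried, 18 genes were called and kept their direction. Named here are 17 of them, RARB, SCARNA21, MUC19, DHRS3, ABCA1, ENSG00000257178, FAXDC2, HMGCS1 and IDI1 among the lower genes, and MID2, IRS4, ID2, METTL1, TAP2, TIPARP, BMP4 and ID2-AS1 among the higher genes.

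**Figure D2:**
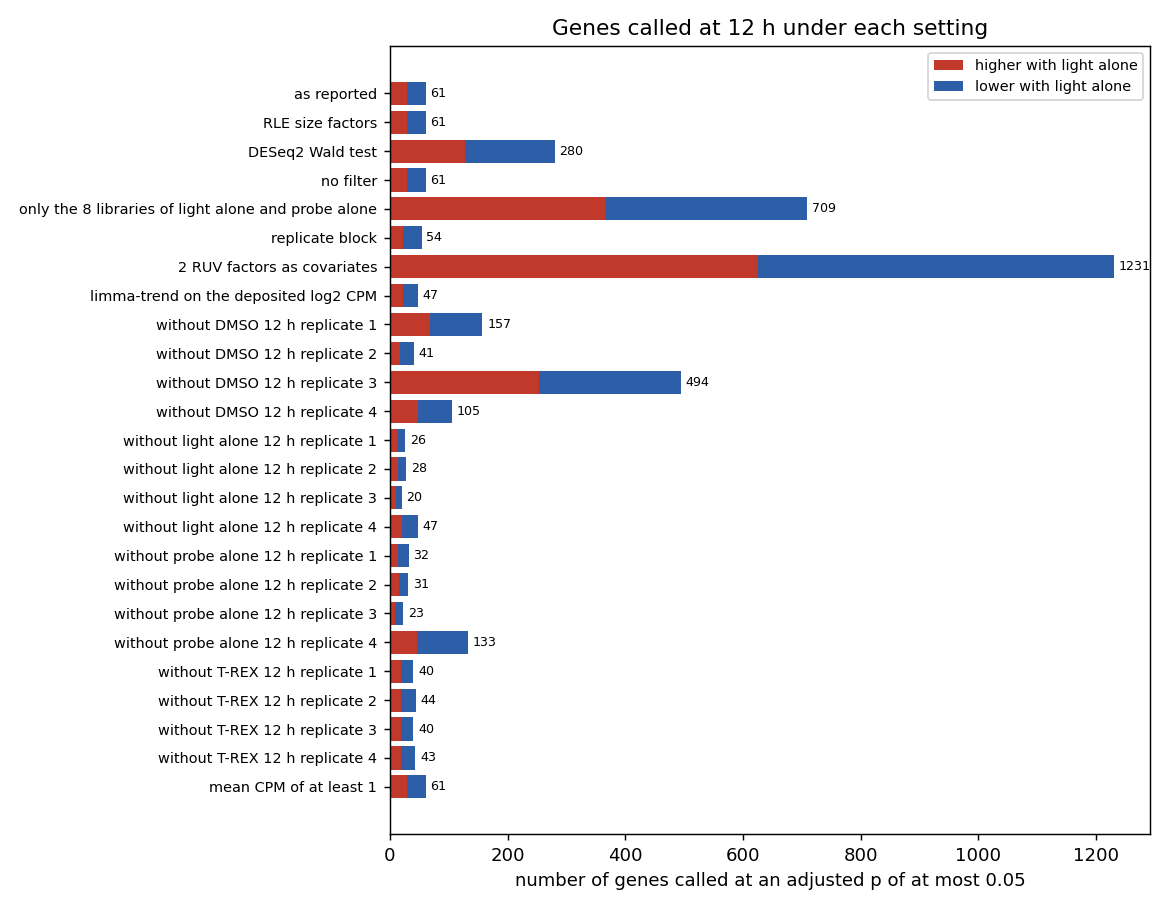
Number of genes called at 12 h (horizontal axis) under each setting (1 bar each), split into genes higher (red) and lower (blue) with light alone. The counts run from 20 without light alone replicate 3 to 1231 with the 2 deposited RUV factors as covariates, beside 61 as reported.

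Retinoic acid acts through nuclear receptors that sit on paired short repeats near their target genes, and RARB is among the best known of these targets, since its product is itself such a receptor. RARB was at 26.1, 26.2, 27.8 and 25.9 CPM in light alone replicates 1 to 4 and at 49.3, 59.8, 49.8 and 52.3 with probe alone. Every light alone library was below every probe alone library. RARB was thus 1.99-fold higher with probe alone (log2 fold change -0.99 ± 0.08 SE, adjusted p = 1.67e-07, quasi-likelihood test of edgeR), and the adjusted p was at most 5.49e-06 in the other settings. Its level was 44 ± 5.3 CPM with DMSO and 21.7 ± 1.98 with T-REX (SD, n = 4), so the arms that received light were both below the arms that did not.

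The promoter of RARB is shown because it holds the paired repeat. The 300 bases run from 250 before to 50 after the start of a RefSeq transcript (GRCh38.p14, chr3:25428013-25428312, plus strand), 1 of 4 starts listed for the gene. The capitals mark the 2 copies of GTTCA 6 bases apart, 5 bases as spacer and the first base of the second repeat.
RARB: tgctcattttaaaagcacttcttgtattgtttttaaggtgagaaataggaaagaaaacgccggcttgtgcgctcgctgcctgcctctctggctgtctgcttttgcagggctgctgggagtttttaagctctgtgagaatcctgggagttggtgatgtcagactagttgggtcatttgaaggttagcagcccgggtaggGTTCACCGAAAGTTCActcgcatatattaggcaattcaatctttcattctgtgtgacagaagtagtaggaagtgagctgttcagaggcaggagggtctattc
This pair, read on both strands, was in 20 of 35116 promoter windows (0.057%). It was searched after the windows had been read. The form listed with the tests, with 5 bases between the repeats, was in 11 windows (0.0313%) and in none of the 45 called genes that had a window. RARB was the 1 called gene with the wider form. A match describes the letters and does not show binding.

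DHRS3, which codes for a retinaldehyde reductase, was the other called gene of the retinoid list. It was at 8.16, 8.29, 9.31 and 7.74 CPM with light alone and at 11.9, 14.7, 12.3 and 17.3 with probe alone. The ranges did not overlap (log2 fold change -0.74 ± 0.13 SE, adjusted p = 0.00488 by edgeR's quasi-likelihood test). Of 23 listed genes of retinoid receptors and the retinoic acid response, 16 were tested, 0 were called higher and 2 lower, and the median was -0.12 beside -0.0028 over all genes. The estimates of 15 of the 16 were below 0, beside 50.9% of all genes. The receptor genes RARA (-0.05 ± 0.14, adjusted p = 0.93), RARG (-0.07 ± 0.17, adjusted p = 0.903) and RXRA (-0.31 ± 0.14, adjusted p = 0.357) were not called. In the fit of only the 8 libraries the homeobox gene MEIS2 was called lower too (-0.20, adjusted p = 0.025, beside 2.34% of all genes called lower). GPRC5A, an orphan receptor gene known to be induced by retinoic acid and not on the list, was at 13.0 ± 1.19 CPM with light alone and 17.5 ± 0.67 with probe alone (adjusted p = 0.0365 by edgeR, kept in 8 of the 16 fits without 1 library). It was singled out after its values were seen.

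**Figure D3:**
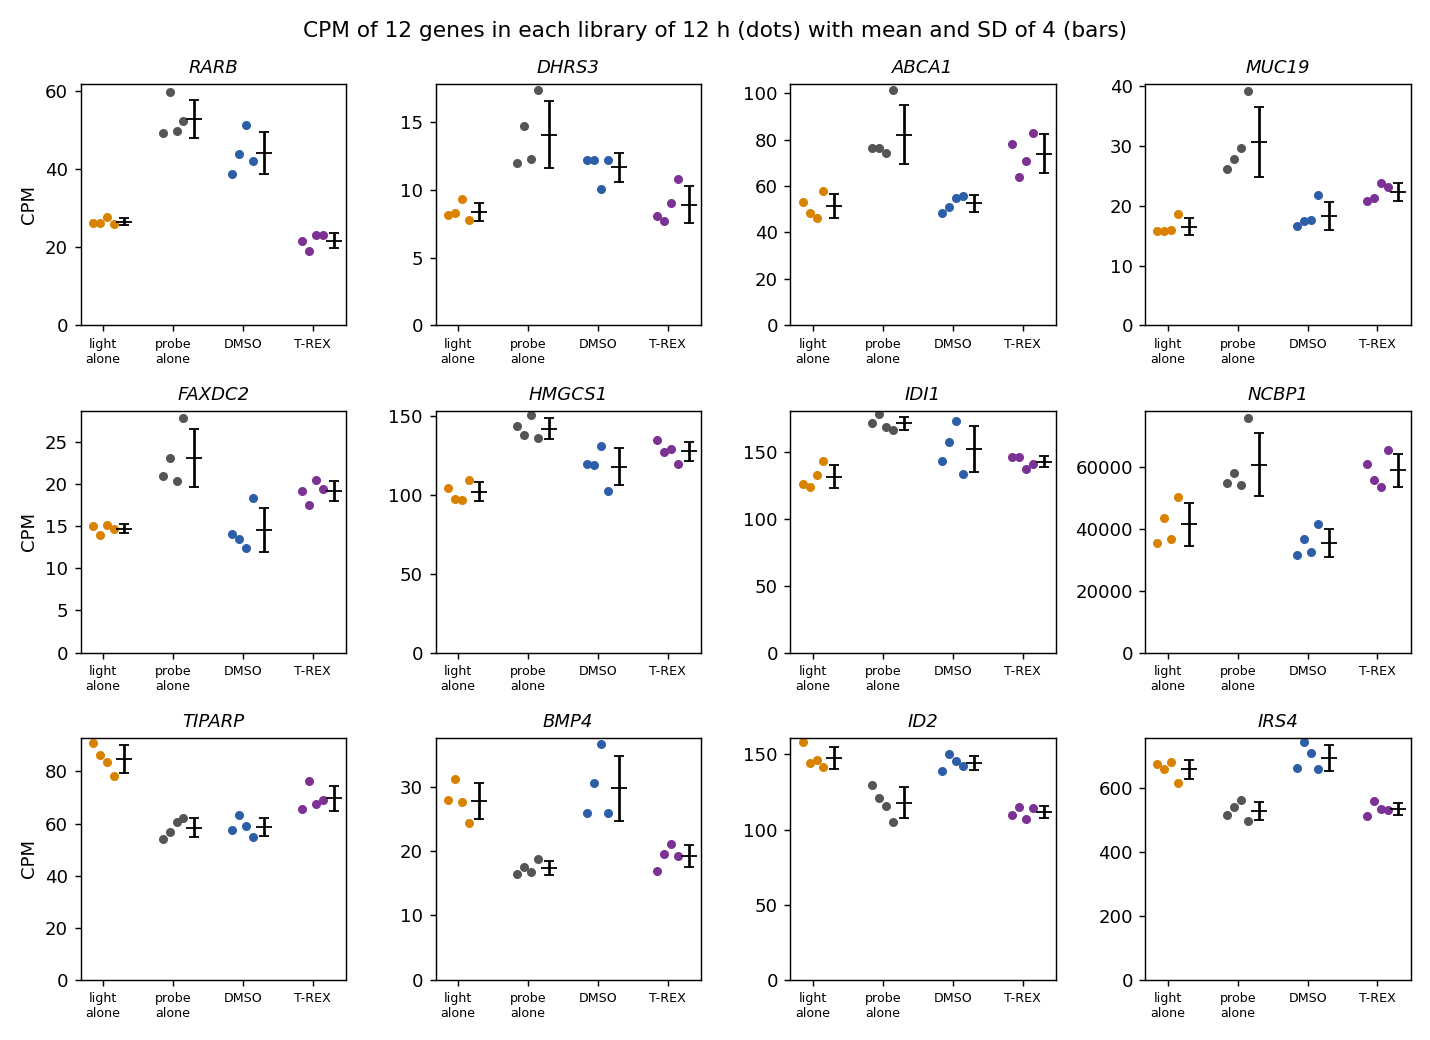
CPM (vertical axes, starting at 0) of 12 genes in each library of 12 h (dots, 4 per arm), with the mean and SD of the 4 (bars). RARB and DHRS3 are low with light alone and T-REX, while ABCA1, BMP4, ID2 and IRS4 have light alone near DMSO and probe alone near T-REX.

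Sterol synthesis builds cholesterol from acetyl-CoA, and most of its enzymes are transcribed together under SREBP2. Of 24 listed genes 22 were tested, and 4 of them were called lower and 0 higher. HMGCS1, which makes HMG-CoA at the entry of the pathway, was at 104.5, 97.2, 96.8 and 109.1 CPM with light alone and at 143.8, 137.7, 150.4 and 135.7 with probe alone. The ranges were far apart relative to their width (log2 fold change -0.48 ± 0.06 SE, adjusted p = 0.000195, edgeR's quasi-likelihood test). IDI1, the isopentenyl diphosphate isomerase, was at 131.3 ± 8.6 CPM with light alone and 171.2 ± 4.9 with probe alone (-0.38 ± 0.06 SE, adjusted p = 0.00324). FDFT1, the squalene synthase, was at 65.4 ± 1.27 and 80.5 ± 6.3 CPM (-0.30 ± 0.06 SE, adjusted p = 0.0111), and SQLE, the squalene epoxidase that follows it, at 115.4 ± 2.23 and 143.3 ± 9.3 CPM (-0.31 ± 0.06 SE, adjusted p = 0.0263). None of the 4 had overlapping ranges. HMGCS1 and IDI1 stayed called in all 16 fits without 1 library, FDFT1 in 13 and SQLE in 9.

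The median over the 22 sterol genes was -0.22, and 20 estimates were below 0 (90.9%). The gene closest to the threshold on its other side was INSIG1, which holds back the activation of SREBP2 (-0.25 ± 0.06, adjusted p = 0.0519), and LSS, SC5D and EBP were within 0.07 of 0. With only the 8 libraries, 10 of the 22 were called lower and 0 higher, beside 2.34% of all genes called lower in that fit. These 10 included HMGCS1, IDI1, FDPS, FDFT1, SQLE, MSMO1, INSIG1 and SREBF2, and without DMSO replicate 3 the count was 9, beside 1.64% of all genes. In the DMSO arm the mean was 117.8 ± 11.6 CPM for HMGCS1 and 151.9 ± 17.1 for IDI1, between light alone and probe alone for both genes. Of 15 genes of fatty acid synthesis 0 were called in either direction, with a median of -0.07, and 4 were called lower with only the 8 libraries (SCD, ELOVL5, ACLY and ACSL3).

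**Figure D4:**
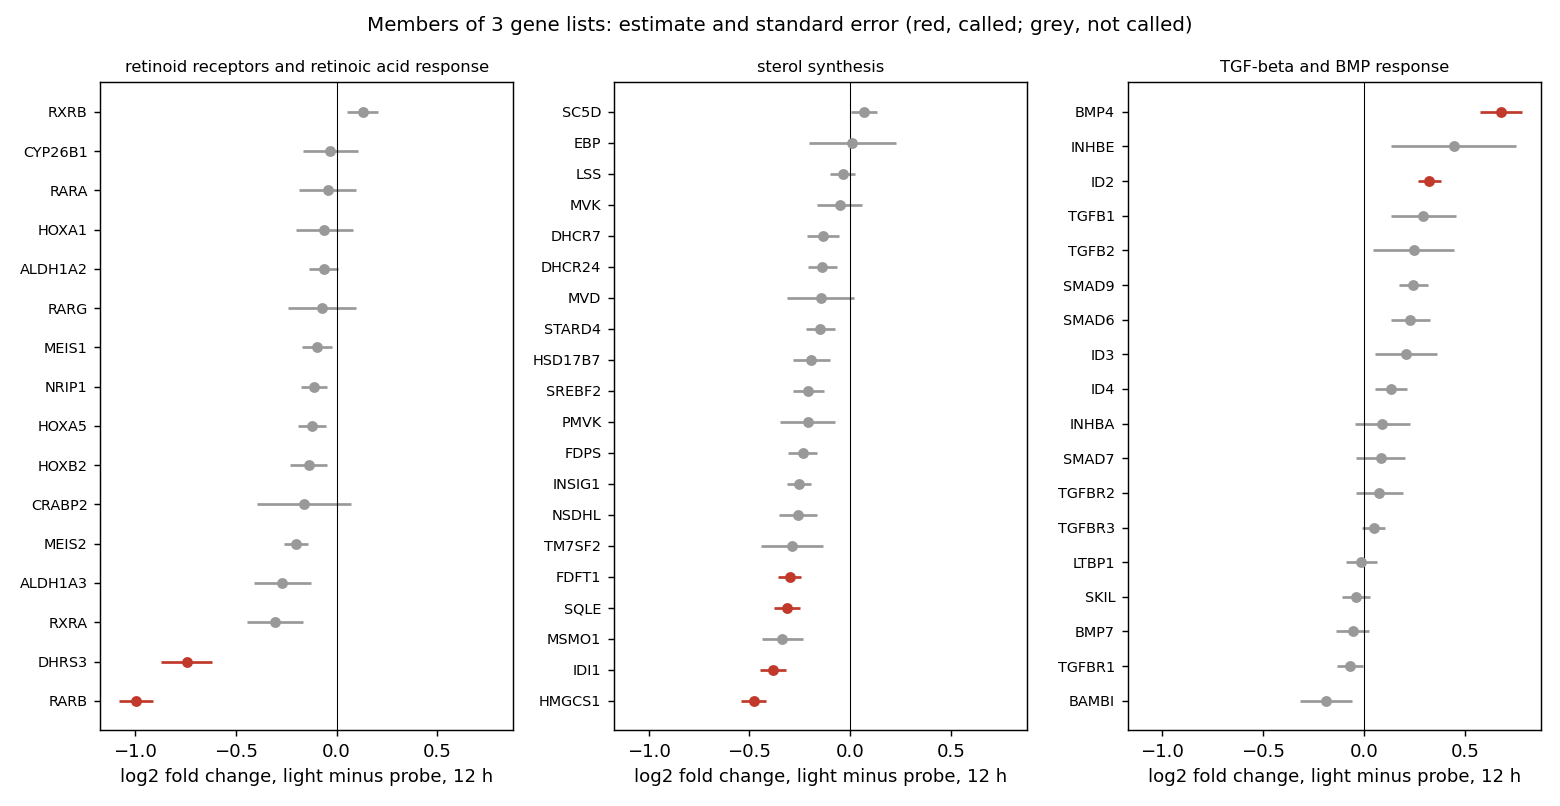
Log2 fold change of light alone over probe alone at 12 h (horizontal axes, with the standard error) for genes of 3 lists, 20 of the 22 tested in the case of sterol synthesis. The 4 called sterol genes and the 2 called retinoid genes lie below 0, and BMP4 and ID2 lie above 0 on the list of the TGF-beta and BMP response.

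ABCA1 moves cholesterol out of the cell onto apolipoproteins. It was at 53.2, 48.2, 46.2 and 57.7 CPM with light alone and at 76.4, 76.5, 74.3 and 101.3 with probe alone. Every light alone library was below the lowest probe alone library (log2 fold change -0.68 ± 0.10 SE, adjusted p = 0.000855, edgeR's quasi-likelihood test). DMSO (52.5 ± 3.46 CPM) was near light alone, and T-REX (73.9 ± 8.4 CPM) near probe alone. ABCA12, a lipid transporter of the same family, was at 5.84 ± 0.53 CPM with light alone and 9.05 ± 1.77 with probe alone (-0.63 ± 0.14 SE, adjusted p = 0.0496), a call kept in 4 of the 16 fits without 1 library. FAXDC2, of the fatty acid hydroxylase family, was at 14.7 ± 0.54 and 23.0 ± 3.42 CPM (-0.65 ± 0.11 SE, adjusted p = 0.00488). CYP4F3, an omega-hydroxylase of leukotriene B4, was at 15.1 ± 2.22 and 24.2 ± 5.3 CPM (-0.67 ± 0.13 SE, adjusted p = 0.0122).

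MUC19, which codes for a gel-forming mucin, was at 15.8, 15.7, 15.9 and 18.6 CPM with light alone and at 26.1, 27.8, 29.7 and 39.2 with probe alone. The groups were well apart (log2 fold change -0.89 ± 0.11 SE, adjusted p = 9.83e-05 by edgeR). FRMPD2, a gene of a FERM and PDZ domain scaffold, was at 5.30 ± 0.80 and 9.42 ± 2.46 CPM (-0.83 ± 0.16 SE, adjusted p = 0.0154). In the probe alone arm the highest library for MUC19, FRMPD2, ABCA1, ABCA12, FAXDC2 and CYP4F3 was replicate 4, which was also the highest in NCBP1. That held for 13 of the 32 lower genes, while 8 were highest in replicate 1, 5 in replicate 2 and 6 in replicate 3. The same count was not made over all genes, so 13 cannot be read as an excess. Without replicate 4, 49 of the 61 genes stayed called. The part of the NCBP1 level in these differences was not tested.

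HSPA6 is a heat shock protein 70 gene that is nearly silent in unstressed cells. It was at 0.992, 2.25, 1.53 and 2.47 CPM with light alone and at 3.73, 5.24, 5.49 and 7.86 with probe alone. The ranges did not overlap, and the level was 3.08-fold higher with probe alone (log2 fold change -1.62 ± 0.34 SE, adjusted p = 0.0421, edgeR's quasi-likelihood test). The call rests on 30 to 218 counts in each of the 8 libraries, and it was kept in 7 of the 16 fits without 1 library. HSPA6 was at 1.45 ± 0.82 CPM with DMSO and 4.57 ± 1.4 with T-REX. It has near-identical relatives in the genome, and how reads that fit several genes were counted is not given in the sources used here, so its level is uncertain. The promoter of HSPA6 is shown because it holds a heat shock element, the repeated binding site of heat shock factors, in the same 300-base frame (GRCh38.p14, chr1:161524290-161524589, plus strand). Capitals mark a run of GAA, TTC and GAA blocks, each 2 bases apart, read on the reverse strand.
HSPA6: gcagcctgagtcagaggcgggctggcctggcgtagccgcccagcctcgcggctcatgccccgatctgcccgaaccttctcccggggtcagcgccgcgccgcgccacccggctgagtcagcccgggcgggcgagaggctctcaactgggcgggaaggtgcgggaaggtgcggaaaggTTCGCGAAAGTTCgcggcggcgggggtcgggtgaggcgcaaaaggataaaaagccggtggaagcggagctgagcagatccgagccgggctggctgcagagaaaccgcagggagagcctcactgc
This element was in 0.49% of all windows, and HSPA6 was the 1 called gene that had it.

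HSPA6 is not on the heat shock list, of whose 23 genes 22 were tested. DNAJB1, the HSP40 partner of HSP70, was called lower (100.5 ± 6.58 CPM with light alone, 125.6 ± 12.3 with probe alone, log2 fold change -0.32 ± 0.07 SE, adjusted p = 0.0495 by edgeR, kept in 4 of 16 fits without 1 library), and 0 were called higher. The median of the list was -0.13 and 21 of 22 estimates were below 0, beside 50.9% of all genes. With only the 8 libraries 6 were called lower, beside 2.34% of all genes, namely DNAJB1, HSPA1B, HSP90AA1, DNAJA1, BAG3 and AHSA1. The abundant chaperone genes HSPA8 (-0.13 ± 0.06, adjusted p = 0.308) and HSP90AB1 (-0.05 ± 0.05, adjusted p = 0.747) were not called.

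MDM2, the ubiquitin ligase that limits p53, was at 1060, 1074, 952 and 1090 CPM with light alone and at 1302, 1249, 1229 and 1494 with probe alone. The ranges did not overlap (log2 fold change -0.34 ± 0.06 SE, adjusted p = 0.00658, edgeR's quasi-likelihood test). It was the 1 called gene of 26 tested p53 targets, whose median was -0.15 with 23 estimates below 0, beside 50.9% of all genes. CDKN1A, the p53 target that arrests the cell cycle, was at -0.08 ± 0.11 (adjusted p = 0.815). With only the 8 libraries MDM2, DDB2 and PHLDA3 were called lower and 0 of the 26 higher, beside 2.34% of all genes called lower. The median of the p53 list was 0.17 at 3 h and -0.24 at 6 h. HEK293T cells carry the SV40 large T antigen, which binds p53. TXNIP, the arrestin-like regulator of glucose uptake, was at 37.1 ± 4.21 CPM with light alone and 50.8 ± 4.45 with probe alone (-0.45 ± 0.10 SE, adjusted p = 0.0365), while 23.9 ± 1.8 were read with T-REX. Its partner target ARRDC4 on the list of the MondoA glucose response was at 0.12 ± 0.07 (adjusted p = 0.537), and TXNIP was the 1 called gene of the 5 tested.

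The remaining lower genes, given so that every called gene is accounted for, were of several kinds. Among RNAs that code for no protein, SCARNA21, a guide RNA of Cajal bodies, was at 4.15 ± 0.37 CPM with light alone and 7.73 ± 0.30 with probe alone (-0.90 ± 0.16 SE, adjusted p = 0.00561 by edgeR). HOXA-AS3, transcribed against the HOXA genes, was at 7.55 ± 0.56 and 11.1 ± 0.94 CPM (-0.56 ± 0.11 SE, adjusted p = 0.0116). Chosen after their values were seen, MALAT1, an abundant nuclear RNA, was at 5665 ± 165.3 and 6736 ± 406 CPM (-0.25 ± 0.05 SE, adjusted p = 0.0144), and SNORD17 (-0.41), MIR29B2CHG (-0.40), the host transcript of miR-29 family members, and ENSG00000257178 (-0.67, no symbol) were lower too. These RNAs differ in length and in how well a library captures them, so their levels are not compared with each other.

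RYR2, a calcium release channel, was at 12.2 ± 1.68 CPM with light alone and 17.3 ± 0.81 with probe alone (-0.51 ± 0.11 SE, adjusted p = 0.0285 by edgeR). TRAF1, an adaptor of TNF receptors, was at 5.62 ± 0.80 and 8.9 ± 1.2 CPM (-0.66 ± 0.15 SE, adjusted p = 0.0421). TCEAL9 was at 11.7 ± 2.68 and 16.8 ± 1.74 CPM (-0.53 ± 0.12 SE, adjusted p = 0.0496), with light alone replicate 4 (15.7 CPM) inside the probe alone range. These calls were kept in 10, 5 and 5 of the 16 fits without 1 library. The other lower genes were SMAD3 (-0.30), which carries TGF-beta signals, ZNF608 (-0.32), TPT1 (-0.33), the cytochrome c oxidase subunit gene COX6C (-0.34), the proteasome assembly gene POMP (-0.41) and GMDS (-0.43), an enzyme of GDP-fucose synthesis. TPT1, COX6C and POMP have processed copies elsewhere in the genome, so that their counts may be split.

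TIPARP codes for a mono-ADP-ribosyltransferase that the aryl hydrocarbon receptor induces and that in turn restrains the receptor. It was at 91, 86.2, 83.5 and 78.4 CPM in light alone replicates 1 to 4 and at 54, 56.6, 60.6 and 62.2 with probe alone. Every light alone library was above every probe alone library, by 1.45-fold in the fit (log2 fold change 0.54 ± 0.06 SE, adjusted p = 6.82e-05, edgeR's quasi-likelihood test). Probe alone was level with DMSO (58.6 ± 3.48 CPM), and T-REX was at 69.6 ± 4.7. Of 11 listed targets and partners of the receptor 7 were tested, and TIPARP was the 1 called, higher, beside a list median of 0.10. CYP1B1, a cytochrome that the receptor induces, was at 11.9 ± 0.71 CPM with light alone and 10.3 ± 1.19 with probe alone (0.22 ± 0.11 SE, adjusted p = 0.433), AHRR, the receptor's repressor, at -0.02 ± 0.18 (adjusted p = 0.981), and AHR itself at -0.09 ± 0.11 (adjusted p = 0.797).

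BMP4 is a secreted ligand of the TGF-beta family, and ID2, an inhibitor of basic helix-loop-helix factors, is among the genes that BMP signals switch on. BMP4 was at 27.9, 31.1, 27.6 and 24.4 CPM with light alone and at 16.4, 17.6, 16.7 and 18.8 with probe alone. The groups were apart (log2 fold change 0.68 ± 0.10 SE, adjusted p = 0.00131, edgeR's quasi-likelihood test). ID2 was at 158.3, 144.1, 146.5 and 141.6 CPM with light alone and at 129.9, 121.2, 115.4 and 105.1 with probe alone (0.32 ± 0.06 SE, adjusted p = 0.00573), and ID2-AS1, named for its place opposite ID2, at 14.5 ± 0.97 and 8.56 ± 0.60 CPM (0.76 ± 0.13 SE, adjusted p = 0.00488). The libraries were stranded, but the counting setting is not given in the sources used here, so reads of ID2 and ID2-AS1 may not be fully separate. BMP4 and ID2 were the 2 called genes of the 18 tested on the TGF-beta and BMP list, with 0 called lower and a median of 0.11. The related ID3 (0.21 ± 0.15, adjusted p = 0.627), ID4 (0.13 ± 0.08, adjusted p = 0.533) and the inhibitory SMAD6 (0.23 ± 0.10, adjusted p = 0.298) were not called, and with only the 8 libraries SMAD9 was called higher too (0.24, adjusted p = 0.033, beside 2.49% of all genes called higher). SMAD3, which carries TGF-beta signals but is not on this list, was called lower (-0.30 ± 0.06 SE, adjusted p = 0.0365 by edgeR).

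Among the other higher genes, METTL1, the enzyme that places 7-methylguanosine in tRNA, was at 25.2, 24.5, 25.9 and 23.0 CPM with light alone and at 17.8, 19.9, 18.4 and 17.6 with probe alone. The ranges did not overlap (0.42 ± 0.07 SE, adjusted p = 0.006 by edgeR). TAP2, a subunit of the peptide transporter of antigen presentation, was at 25.4 ± 1.17 and 18.1 ± 1.79 CPM (0.49 ± 0.09 SE, adjusted p = 0.00696). Singled out after their values were seen because every setting called them, IRS4, an insulin receptor substrate, was at 657.6 ± 29.4 and 527.8 ± 28.6 CPM (0.32 ± 0.05 SE, adjusted p = 0.00269), and MID2, a microtubule-bound ubiquitin ligase, at 144.0 ± 3.57 and 116.1 ± 5.23 CPM (0.31 ± 0.05 SE, adjusted p = 0.00488).

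SMARCD3, a subunit of the SWI/SNF remodelling complex, was at 37.7 ± 2.39 CPM with light alone and 27.6 ± 1.54 with probe alone (0.45 ± 0.08 SE, adjusted p = 0.0079 by edgeR). RAMP2-AS1 was at 0.45 ± 0.10, the tetraspanin gene TSPAN18 at 0.44 ± 0.10, the FGF receptor-like gene FGFRL1 at 0.41 ± 0.09, MLLT11 at 0.38 ± 0.08 and PLEKHG2, a guanine nucleotide exchange factor, at 0.36 ± 0.07. SEPTIN3, a neuronal septin, was at 0.36 ± 0.07 and CA8, related to carbonic anhydrases, at 0.33 ± 0.07. Of these 8, 0 had overlapping ranges, and their calls were kept in 4 (TSPAN18) to 14 (SMARCD3) of the 16 fits without 1 library. The other higher genes had log2 fold changes from 0.20 to 0.32. They were the alpha-tubulin gene TUBA1C, which has close paralogs, ENSG00000261409 and ENSG00000280322, the corepressor gene RUNX1T1, PLBD2, the U3 snoRNP gene IMP4, PRUNE1, the ligase gene RNF5, the mitochondrial ribosome gene MRPS15, CIPC, which interacts with CLOCK, the tRNA methyltransferase gene METTL2A and the Golgi gene GORASP2.

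Of the 24 gene lists, 17 had 0 called genes. Of the 76 cytosolic ribosomal protein genes 0 were called by edgeR, while 65 estimates were below 0, beside 50.9% of all genes, and the median was -0.17. With only the 8 libraries 11 of the 76 were called lower and 0 higher, and over all genes that fit called 2.34% lower and 2.49% higher, shares that also stand beside the counts of the other lists here. The mitochondrial transcripts had a median of -0.11 over 15 genes, and 1 was called lower in that fit. The integrated stress response had a median of -0.07 over 36 genes, the unfolded protein response -0.08 over 27, NRF2 targets 0.03 over 21, the hypoxia response 0.05 over 29 and nucleotide excision repair -0.02 over 29. With only the 8 libraries 1 gene of the integrated stress response, 7 of the unfolded protein response, 1 of the NRF2 targets and 3 of nucleotide excision repair were called lower, 1 of the unfolded protein response and 1 of the NRF2 targets were called higher, and 0 of the hypoxia response were called. The 7 genes of the unfolded protein response that were then lower included the chaperone genes HSPA5 (-0.17) and HSP90B1 (-0.18). The 27 genes of the cap-binding complex and its partners had a median of 0.01, with 0 called, and KPNA2, an importin gene, was called higher with only the 8 libraries (0.16, adjusted p = 0.00678). The remaining lists (glycolysis, immediate early genes, interferon response, mitosis, DNA replication, Wnt and Notch feedback, amino acid transporters, neuronal and developmental regulators) had medians between -0.08 and 0.09. With only the 8 libraries 4 of the 14 amino acid transporters were called higher and 0 lower, and 3 of the 31 genes of DNA replication were called lower and 0 higher. Of the immediate early genes and of the mitosis genes 1 each was called in either direction, of Wnt and Notch feedback genes 1 was called higher, and of glycolysis, interferon response and developmental regulators 0 were called.

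At 12 h 2 genes were called between light alone and DMSO (0.0136%), RARB lower (-0.73 ± 0.085, adjusted p = 8.26e-05 by edgeR) and TIPARP higher with light alone (0.53 ± 0.06, adjusted p = 8.26e-05). Between probe alone and DMSO 751 genes were called (5.11%), and between T-REX and DMSO 1598 (10.9%, with 4.09% higher and 6.79% lower with T-REX). These comparisons share libraries with each other or with light alone against probe alone, except the last, which shares none with it. The mean of the DMSO arm was nearer to light alone than to probe alone for 25 of the 29 higher and 24 of the 32 lower genes, beside 62.2% of all genes. The mean of the T-REX arm was nearer to light alone for 7 of the 29 and 20 of the 32, beside 48% of all genes.

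For 29 of the 61 genes (47.5%, beside 34.1% of all genes) DMSO was nearer to light alone and T-REX nearer to probe alone. They included the higher genes BMP4, ID2, IRS4 and MID2 and the lower genes ABCA1, HMGCS1, CYP4F3 and MALAT1. Most of them were higher genes. Among the lower genes alone the share was close to the 34.1% of all genes. The arm means of NCBP1 were placed likewise, with DMSO nearer to light alone and T-REX nearer to probe alone. For 7 genes (beside 19.8% of all genes) T-REX was nearer to light alone and DMSO to probe alone, namely RARB, DHRS3, TXNIP, RYR2, IDI1, FDFT1 and COX6C. For 20 both were nearer to light alone (28.1% of all genes), and for GMDS, SEPTIN3, PLEKHG2, RAMP2-AS1 and TIPARP both were nearer to probe alone (18% of all genes). Between T-REX and DMSO, which share no library with the 8, 16 of the 29 higher genes were called lower with T-REX, and TIPARP was called higher (0.25 ± 0.06, adjusted p = 0.0148). Of the 32 lower genes, 7 were called higher with T-REX and 3 lower, beside 4.09% and 6.79% of all genes. The 3 were RARB (-1.02 ± 0.09, adjusted p = 1.22e-07 by edgeR), TXNIP (-0.94 ± 0.10, adjusted p = 3.2e-06) and COX6C (-0.26 ± 0.08, adjusted p = 0.0357). By direction only, 18 of the 32 were higher with T-REX than with DMSO, beside 60.6% of all genes that were lower with light alone.

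The same comparison at 3 h called 34 genes (0.232%) and at 6 h 9 genes (0.0613%), in libraries other than those of 12 h. Of the 61 genes, 59 had at 6 h the direction they had at 12 h, beside 63.1% of all genes, with 31 of the 32 lower and 28 of the 29 higher. At 3 h it was 38 of 61, beside 55.1% of all genes. The medians at 6 h were -0.21 over the lower and 0.18 over the higher genes, and at 3 h -0.13 and 0.06. At 6 h 6 of the 61 were called, all in the same direction, namely RARB, ENSG00000257178, ENSG00000280322, IRS4, ID2 and TIPARP. These were 9.84% of the 61 and 66.7% of the genes called at 6 h. At 3 h 4 of the 61 were called (6.56%, and 11.8% of the genes called at 3 h), namely RARB, HMGCS1, IDI1 and FDFT1, again in the same direction.

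RARB was the 1 gene among the 61 that was called at all 3 times. It was at 17.6, 16.5, 14.3 and 15.5 CPM with light alone at 3 h and at 37.5, 41.9, 33.4 and 33.1 with probe alone (log2 fold change -1.19 ± 0.09 SE, adjusted p = 1.1e-07 by edgeR). At 6 h it was at 29.2, 33.4, 32 and 26.45 with light alone and at 57, 52.7, 51.9 and 51.4 with probe alone (-0.82 ± 0.08 SE, adjusted p = 2.46e-06). The groups did not overlap at either time. TIPARP was at 0.28 ± 0.07 at 3 h (adjusted p = 0.0789) and 0.49 ± 0.08 at 6 h (adjusted p = 0.0144). The sterol list had 6 genes called lower and 0 higher at 3 h with a median of -0.28, and 0 called at 6 h with a median of -0.12. ABCA1 was at 0.07 ± 0.09 at 3 h (adjusted p = 0.777) and -0.71 ± 0.16 at 6 h (adjusted p = 0.143), and NCBP1 was at -0.06 ± 0.12 at 3 h (adjusted p = 0.871) and -0.99 ± 0.14 at 6 h (adjusted p = 0.0144).

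**Figure D5:**
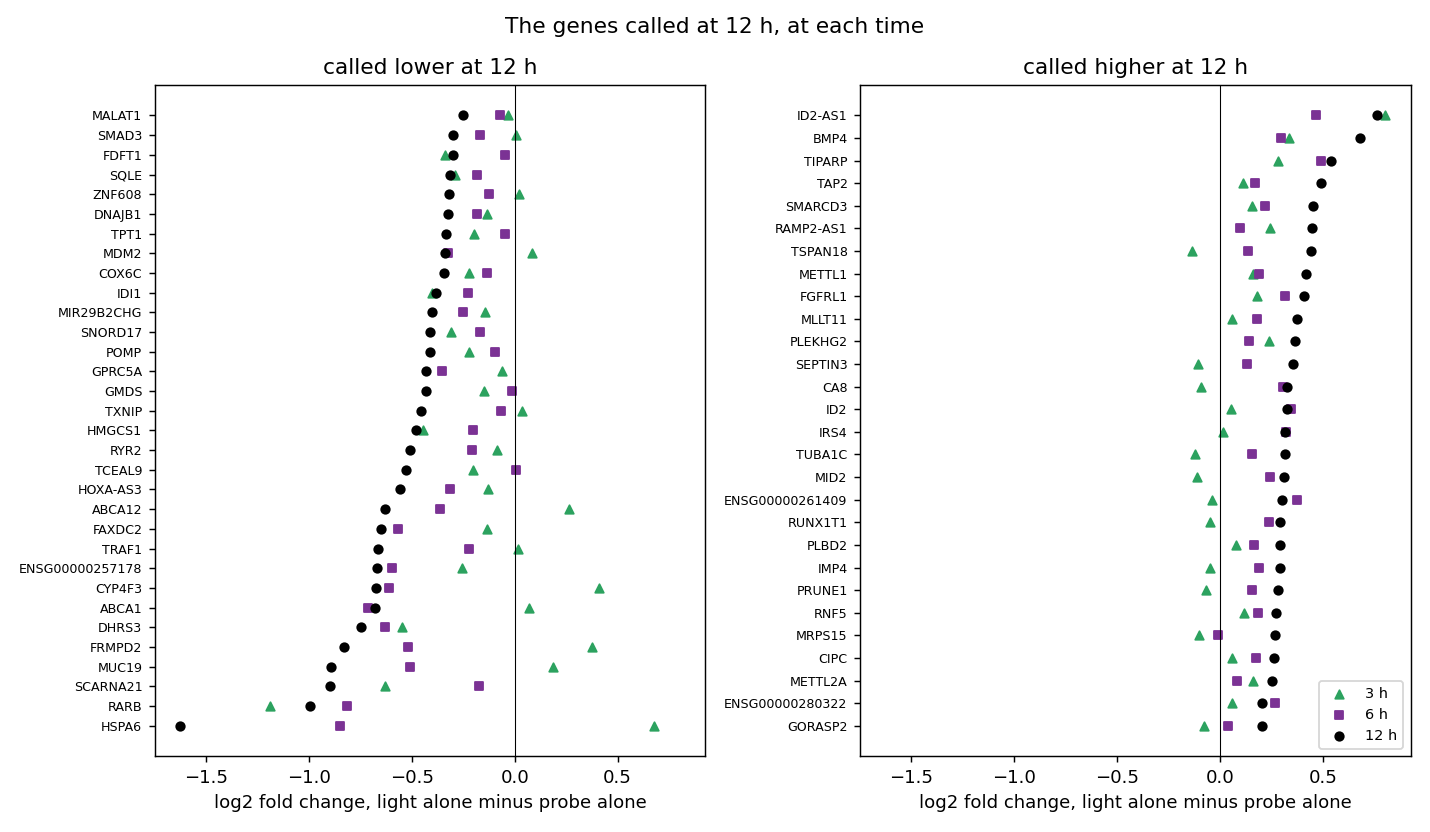
Log2 fold change of light alone over probe alone (horizontal axes) at 3 h (triangles), 6 h (squares) and 12 h (circles) for the 32 genes called lower and 28 of the 29 called higher at 12 h. At 6 h 58 of the 60 drawn lie on the same side of 0 as at 12 h, and at 3 h 38 do.

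Whether the difference at 12 h was another one than at an earlier time was tested in 1 fit of all 48 libraries. Against 3 h, 18 of 14685 genes were called (0.123%), 7 of them among the 61, and 6 of these are given. The 12 h difference by which the 61 were chosen also enters this test. The 7 can therefore not be read as an excess, and their estimates may be too large in size. The difference fell by 2.28 on the log2 scale for HSPA6 (adjusted p = 0.0206), by 1.06 for MUC19 (adjusted p = 0.023) and by 1.06 for CYP4F3 (adjusted p = 0.0432, edgeR's quasi-likelihood test for each). HSPA6 was at 3.36 ± 0.41 CPM with light alone and 2.11 ± 0.61 with probe alone at 3 h, the opposite order to 12 h. The difference was 0.48 higher at 12 h for SEPTIN3 (adjusted p = 0.0432), 0.45 for MID2 (adjusted p = 0.0308) and 0.39 for MRPS15 (adjusted p = 0.023). The count of 18 was 0 without light alone replicate 1 or 3 or probe alone replicate 4 of 12 h, or without probe alone replicate 2 of 3 h. RARB (0.22 ± 0.12, adjusted p = 0.501), TIPARP (0.28 ± 0.11, adjusted p = 0.31) and HMGCS1 (-0.01 ± 0.10, adjusted p = 0.981) were not called. Against 6 h, 0 genes were called by edgeR's quasi-likelihood test and 0 by DESeq2, with 553 genes (3.77%) at an unadjusted p under 0.05 in edgeR.

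Promoter windows were found for 45 of the 61 genes. Any of a gene's windows could hold a motif, so a gene with several starts had more chances than a single window. The core of the aryl hydrocarbon element, GCGTG, was in 26 of the 45 genes and in 36.5% of all windows. The hypoxia element core ACGTG was in 26 (21.4% of windows), the E-box CACGTG, which contains it, in 11 (7.26%), the antioxidant element TGACNNNGC in 16 (13.3%), and the cyclic AMP element TGACGTCA in 0 (1.85%).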

How the data were processed

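The authors deposited raw counts per gene for 48 rRNA-depleted, stranded, paired-end libraries (4 arms, 4 independent replicates, 3, 6 and 12 h), log2 CPM values and a score per library for each of 2 factors of unwanted variation (RUV). The submitters' processing notes name bcl2fastq, and for reads of this kind the study's reporting summary lists TopHat, Cufflinks and cutadapt. Which tool made the deposited gene counts, and the genome build, are not given in the sources used here. Counts of the 16 libraries of 12 h were fitted with edgeR 4.0.16 in R 4.3.3 (TMM, filterByExpr, robust quasi-likelihood test), which removed 0 genes and left 12 residual degrees of freedom. P-values were adjusted over all 14685 genes by the Benjamini-Hochberg method, and a gene was called where its adjusted p did not exceed 0.05. The deposited log2 CPM values and the RUV scores entered 1 alternative each. The time comparisons were fitted on all 48 libraries. Named by rule were the 14 called genes with a symbol and the largest change in each direction, called genes of the lists, and RARB, TIPARP and NCBP1. The other called genes are named to account for the 61, after their values were seen, and a few items are not reported here. The members and lists were chosen with earlier results of these data known. All 12 replicate pairs tested differed beyond sampling noise (chi-square per degree of freedom 5.3 to 19.1). DESeq2 1.42.0, limma 3.58.1 and other alternatives are given in the closing section. Scripts were tested on simulated data. Of 50 genes changed 1.25-fold 54% were called in the right direction, of 50 changed 1.5-fold 72% and of 50 changed 2-fold 92%. A gene that was not called may therefore still differ.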

Additional observations from a re-analysis of the deposited data

Results flagged for a closer look

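In 7 of 122 groups of 4 libraries, 1 library stood apart from the other 3 by Dixon's criterion, which chance meets in about 1 of 20 groups. For MUC19, light alone replicate 4 was at 18.64 CPM and the others at 15.75 to 15.95. For ABCA1, probe alone replicate 4 was at 101.3 CPM and the others at 74.33 to 76.55. For TRAF1, light alone replicate 1 was at 6.809 CPM and the others at 5.046 to 5.34. For TCEAL9, light alone replicate 4 was at 15.69 CPM and the others at 10.05 to 10.9. For GPRC5A, probe alone replicate 4 was at 18.5 CPM and the others at 17.12 to 17.3. For SMARCD3, light alone replicate 3 was at 41.27 CPM and the others at 36.17 to 36.77. For NCBP1, probe alone replicate 4 was at 75760 CPM and the others at 54210 to 57870.

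The light alone to probe alone difference of 12 h was not that of 3 h, by a test of the difference itself, for 7 of the 61 genes, and 6 are given. On the log2 scale it was -2.28 for HSPA6, -1.0583 for MUC19, -1.0594 for CYP4F3, 0.3923 for MRPS15, 0.4456 for MID2 and 0.4837 for SEPTIN3. These calls rest on a count of 18 genes that was 0 without any 1 of 4 libraries. The 12 h difference by which the 61 were chosen also enters this test.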

How the results depend on the processing

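Of the 61 genes, 18 stayed called in all 24 alternatives and 0 changed direction in any. The count was 280 with DESeq2's Wald test, 709 with only the 8 light alone and probe alone libraries, and 1231 with the 2 RUV factors as covariates, and it ran from 20 without light alone replicate 3 to 494 without DMSO replicate 3. It was 61 with RLE size factors and with a mean of at least 1 CPM, and 47 with limma-trend on the deposited log2 CPM. It was also 61 without the filter on low counts, but the filter had removed 0 genes, so that fit only repeated the reported one. Same-numbered libraries did not deviate together (correlations of -0.115 to 0.112), so the numbers were not taken as pairs, and the replicate block gave 54 calls, 46 of them among the 61. The difference between 12 h and 3 h had 18 calls, and 33 with the replicate block within each time point, 1 with only the 24 light alone and probe alone libraries, 35 with DESeq2's Wald test, and from 0 to 28 when 1 library was left out. The mean CPM filter and DESeq2 for the time comparisons were chosen after seeing the data. The causes of these changes were not tested. Counting depth limits HSPA6 most, with as few as 30 counts in a library.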
